A study of Homo sapiens with 12 samples.

Results

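The 933 transcript clusters with the brightest signal were examined among 65535 clusters measured in A375, an established human melanoma cell line. A transcript cluster is a set of array probes that target 1 transcribed locus. The members were selected on their signal itself: the log2 intensity of each cluster was averaged over 12 arrays, and those with a mean of at least 14 were kept. They were set beside the 6875 clusters with a mean from 7 to under 14, called the middle clusters here. The 12 Affymetrix arrays form 6 groups of 2. Total RNA and polysomal RNA were each taken from cells given DMSO for 2 h, cells given interferon-gamma (IFNg) for 24 h, and cells given IFNg for 24 h and silvestrol for 2 h. No group received silvestrol without IFNg, no vehicle is named for the IFNg samples, and DMSO and IFNg cells differed in hours. Nothing in the labels ties a replicate to its own culture, so every p-value below measures only the spread between these samples, which may be technical.

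Polysomal RNA is the RNA recovered with mRNAs that carry several ribosomes, and its level relative to total RNA is read as a measure of how fully a transcript is loaded. Silvestrol is a plant compound that blocks eIF4A, the helicase that opens the 5′ ends of mRNAs for the scanning ribosome. IFNg acts through a receptor with the kinases JAK1 and JAK2. Promoters of its target genes are known for GAS and ISRE elements, and IRF1, itself a target, binds the latter. The mRNAs of ribosomal proteins begin with a C followed by a run of C and T letters, the 5′ terminal oligopyrimidine or TOP tract, through which mTORC1, 4E-BP1 and LARP1 control their translation. The mRNAs of replication-dependent histones end in a stem-loop in place of a poly(A) tail and are made mainly in S phase.

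Promoter sequences are shown for 4 members that rose with IFNg in total RNA, chosen after the search because they hold the motif letters. Of the 14 promoters found for such members, these 4 have a match in the bases shown and the other 10 have none there, among them HLA-F and HLA-DPB1. Each line holds the 150 bases before the annotated start, 5′ to 3′ on the gene's strand, from RefSeq on GRCh38.p14. Capitals mark the GAS letters TTCNNNGAA and the ISRE-like letters GAAANNGAA, searched on both strands. PARP14 lies at chr3:122680689-122680838 (plus strand), TAPBP at chr6:33314079-33314228 (minus strand), IFI6 at chr1:27672193-27672342 (minus strand) and HLA-DRB1 at chr6:32589849-32589998 (minus strand).
PARP14: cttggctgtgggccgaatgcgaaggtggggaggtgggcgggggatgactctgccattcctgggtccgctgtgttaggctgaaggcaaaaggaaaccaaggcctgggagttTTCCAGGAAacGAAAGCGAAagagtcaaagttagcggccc
TAPBP: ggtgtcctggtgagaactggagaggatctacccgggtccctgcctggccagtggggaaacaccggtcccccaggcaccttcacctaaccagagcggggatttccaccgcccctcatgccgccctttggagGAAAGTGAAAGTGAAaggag
IFI6: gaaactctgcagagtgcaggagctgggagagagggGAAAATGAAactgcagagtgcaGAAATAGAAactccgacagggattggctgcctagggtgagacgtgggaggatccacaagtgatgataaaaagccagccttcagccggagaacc
HLA-DRB1: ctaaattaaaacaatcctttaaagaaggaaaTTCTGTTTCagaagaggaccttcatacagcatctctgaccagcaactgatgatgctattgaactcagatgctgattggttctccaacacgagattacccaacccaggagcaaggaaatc
The letters of the ISRE-like motif occurred in 8 of the 14 promoters found for members that rose with IFNg in total RNA, counted over 300 bases from 250 before to 50 after the start. They occurred in 8.29% of all 27305 promoters in 10.6% of the 414 found for members with 1 symbol and in 6.09% of the 3020 found for middle clusters with 1 symbol. Among histone members, of which none was called higher with IFNg, they occurred in 7 of 22, or 31.8%. The GAS letters occurred in 1 of the 14 promoters and in 7.88% of all promoters. The 2 motifs can overlap, and a match describes letters only.

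The start windows of 6 ribosomal protein members are shown because 13 of the 26 ribosomal protein members fell in polysomal RNA with IFNg, as described further below. Of the 6, RPS23 did not pass. All 6 hold the start letters that are counted below. RPL10A, RPL11, RPL9 and RPS7 lack them and are not shown, at polysomal changes of -2.59, -1.30, -1.20 and -1.09 with IFNg. Each line gives the 15 bases before and the 15 bases from the annotated start (RefSeq, GRCh38.p14), with the unbroken run of C and T letters at the start in capitals. The windows are chr1:6199581-6199610 (RPL22, minus strand), chr2:101002274-101002303 (RPL31, plus strand), chr5:150449725-150449754 (RPS14, minus strand), chr6:33272060-33272089 (RPS18, plus strand), chr1:153990747-153990776 (RPS27, plus strand) and chr5:82278340-82278369 (RPS23, minus strand).
RPL22: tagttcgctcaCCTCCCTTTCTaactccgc
RPL31: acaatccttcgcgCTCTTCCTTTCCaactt
RPS14: ccgccccctcccaCTCTCTCTTTCCggtgt
RPS18: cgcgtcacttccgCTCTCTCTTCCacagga
RPS27: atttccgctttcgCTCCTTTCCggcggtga
RPS23: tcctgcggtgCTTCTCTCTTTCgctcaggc
A C at the annotated start followed by at least 5 C or T letters was present in 14 of the 18 promoters found for ribosomal protein members, or 77.8%. The same letters were present at 2.999% of all promoters, at 3.54% of those found for middle clusters and at 0 of the 22 promoters found for histone members. A start a few bases away would change this count for a single gene.

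Of the 933 members, 607 were paired with 1 gene symbol, 48 with several and 278 with none, and only the first kind is named. Of the 607, 507 were protein-coding genes, 67 were pseudogenes, 4 were transcribed pseudogenes, 12 were snRNAs, 10 were copies of the 5S rRNA gene and 3 were miRNAs. Symbols were absent for 29.8% of the members and for 31.7% of the middle clusters. Some members repeated the values of another exactly, which left 908 distinct profiles. Near-identical copies such as the U1 RNA genes may share probe targets, which could not be checked. For 7 of 606 members the chromosome in the identifier differed from that of the named gene in RefSeq. Of these, 5 carry the names of ribosomal proteins (RPL41 at 2 loci, RPS26, RPL21 and 1 of the 2 RPL7 clusters), so the cluster may be a copy of the named gene.

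The members held between 81.2% and 83.4% of the summed intensity of an array, and the middle clusters between 15.2% and 17.4%. The median log2 level of the members lay between 15.50 and 15.82 on 10 of the arrays. On the polysomal IFNg arrays it was 15.26 and 15.38, the lowest values of the 12. The same arrays had the lowest medians of the middle clusters, 9.002 and 9.06 against 9.30 to 9.68 on the others. These 2 arrays therefore stood apart in both classes and are the whole polysomal IFNg group, and every result on polysomal IFNg below rests on them. How arrays were scaled to each other before deposit is not given in the sources used here. An overall shift of an array and a shift of RNA cannot be told apart, so results on polysomal IFNg were also computed after quantile normalization (over all arrays, and within each fraction) and after centring each array on the middle clusters. These are the 3 other scalings below.

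**Figure D1:**
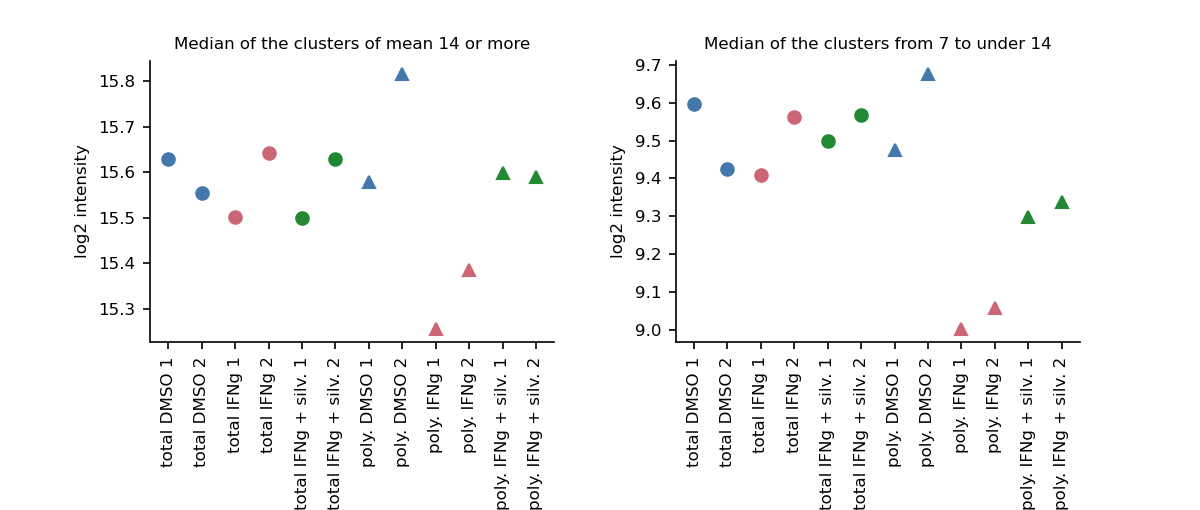
Median log2 intensity of the 933 brightest clusters (left) and of the 6875 middle clusters (right) on each of the 12 arrays, circles for total RNA and triangles for polysomal RNA, blue for DMSO, red for IFNg and green for IFNg with silvestrol. The 2 polysomal IFNg arrays lie lowest in both panels, at 15.26 and 15.38 on the left and at 9.002 and 9.06 on the right.

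The bound of 14 cut a continuous range. Just inside it were HIPK2 (mean log2 14.02), TMEM167A (14.01) and an unnamed cluster on chromosome 1 (14.01), and just outside were ATG9A (13.9985) and NES (13.98). The members' means had a median of 15.45 and reached 19.69. By level, 333 members lay from 14 to 15, 251 from 15 to 16, 192 from 16 to 17, 104 from 17 to 18 and 53 at 18 or above. Probes differ in how strongly they bind, so the order of intensities between clusters is not an order of RNA amounts.

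The highest mean belonged to SERPINE2, which encodes a secreted inhibitor of serine proteases, at 19.69. Next came RN7SK, the RNA that holds the elongation factor P-TEFb inactive, at 19.26, and EEF1A1, which brings aminoacyl-tRNA to the ribosome, at 19.25. RPN1, a subunit of the oligosaccharyltransferase of the endoplasmic reticulum (ER), had a mean of 19.09. MTND1P23, annotated as a nuclear copy of a mitochondrial gene, had 19.07, and H4C3, a histone H4 gene, had 18.96. Whether the probes of MTND1P23 also bind the mitochondrial RNA could not be checked. The other 4 of the first 10 carry no symbol or several. EEF1A1 was the flattest of these named clusters: its total RNA values were 19.38 and 19.24 with DMSO, 19.10 and 19.32 with IFNg and 19.34 and 19.34 with silvestrol. Its polysomal values were 19.28 and 19.19, 19.05 and 19.25, and 19.03 and 19.45 in the same order. All 12 values lay between 19.03 and 19.45. None of the 6 named clusters at the top passed the test in any of the 12 comparisons.

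The labelled cell type was compared with its markers. Of 9 melanoma line markers, 3 were in the table: MITF, the melanocyte lineage factor, had a mean log2 of 13.15 and S100A1 had 11.20, whereas the melanocyte antigen MLANA was at 5.89. The leukocyte markers PTPRC (4.77) and CD14 (4.89) and the epithelial marker EPCAM (3.91) were close to the median of all clusters, which lay between 4.15 and 4.24 on the arrays. None of these markers was a member, and no endothelial marker was in the table.

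Polysomal RNA was compared with total RNA within each treatment by limma over all 12 arrays and all clusters, with p-values adjusted by the Benjamini-Hochberg method and a call at an adjusted p under 0.05. In DMSO cells, 3 members were higher and 4 lower in polysomal RNA, against 0.061% and 0.0565% of all clusters. In IFNg cells, 6 were higher and 71 lower, against 0.18% and 1.05%. With silvestrol added, 32 were higher and 27 lower, against 0.497% and 0.65%. Dim clusters make up most of the table, and the middle clusters give a nearer background. There, 32 and 27 were called in DMSO (0.858% together, 0.75% of members), 58 and 438 in IFNg (7.21% against 8.25%), and 212 and 305 with silvestrol (7.52% against 6.32%). The median difference over the members was -0.03 in DMSO, -0.35 in IFNg and -0.17 with silvestrol. Over the middle clusters it was -0.01, -0.37 and -0.23. The sign of the members' medians depended on the scaling: centred on the middle clusters they were -0.09, 0.11 and 0.04. So did the split of calls: the share that was higher, 42.9%, 7.79% and 54.2% in the 3 treatments, became 25%, 56.2% and 78.8% after centring. After quantile normalization it was 0%, 26.2% and 53.2% over all arrays and 0%, 18.5% and 42.6% within fractions.

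The counts of fraction calls rested on single arrays. Without either total RNA array or polysomal replicate 1 of the silvestrol group, 0 members were called there, and 32 without its polysomal replicate 2. In IFNg cells the count of 77 became 34 and 17 without polysomal replicate 1 or 2, and 45 and 6 without total RNA replicate 1 or 2. In DMSO cells the count of 7 became 1 to 4 without any 1 array. Of the 71 lower calls in IFNg cells, 42 remained under all 3 other scalings, and all 6 higher calls did. Over the 3 treatments, 394 members were below 0 in each and 197 above 0 in each, of which only PRKDC was called in all 3.

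PRKDC, the catalytic subunit of the DNA-dependent protein kinase, had the lowest level in polysomal relative to total RNA of DMSO cells. Its total RNA values were 15.32 and 15.56 with DMSO, 15.53 and 15.75 with IFNg, and 15.45 and 15.004 with silvestrol. The polysomal values were 11.65 and 11.68, 14.05 and 13.89, and 13.53 and 13.60. Polysomal values lay below all total RNA values in each treatment. The difference was -3.77 ± 0.25 (SE, n = 2 arrays a group, limma adjusted p = 0.00011) in DMSO, -1.67 in IFNg (adjusted p = 0.0079) and -1.66 with silvestrol (adjusted p = 0.013). RNU4ATAC, the U4atac RNA of the minor spliceosome, averaged -2.42 over the treatments. It was called in IFNg cells (-3.05 ± 0.48, limma adjusted p = 0.012), not in DMSO (-2.31, adjusted p = 0.097) or with silvestrol (-1.91, adjusted p = 0.090). PARP14, an ADP-ribosyltransferase, was lower in polysomal RNA in DMSO (-2.11 ± 0.25, adjusted p = 0.016) and with silvestrol (-1.62, adjusted p = 0.013). Under each of the 3 other scalings the IFNg calls of PRKDC and RNU4ATAC were made again. The IFNg call of RNU4ATAC was lost without polysomal replicate 2 or total RNA replicate 1, and that of PRKDC without polysomal or total RNA replicate 2. The DMSO call of PARP14 was lost without polysomal replicate 2 or either total RNA array.

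At the other end stood RNPEP, an aminopeptidase, with a mean difference of 1.84. Its total RNA values were between 12.92 and 13.79 and its polysomal values between 14.65 and 15.43, with no overlap. It was called in IFNg cells (1.78 ± 0.27, limma adjusted p = 0.0080) and with silvestrol (2.21, adjusted p = 0.0079), and gave 1.54 in DMSO (adjusted p = 0.056). UQCRC1, a core subunit of respiratory complex III, had the same pattern, at 1.16 (adjusted p = 0.13), 1.63 (adjusted p = 0.013) and 2.29 (adjusted p = 0.0079) in the 3 treatments. GPAA1, of the GPI transamidase, and REEP4, an ER-shaping protein, were called only in the silvestrol group, at 2.60 (adjusted p = 0.0090) and 1.89 (adjusted p = 0.034). Their differences in the other 2 treatments ranged from 1.21 to 1.71. These 4 calls of the silvestrol group were lost without either of its total RNA arrays or its polysomal replicate 1. The IFNg calls of RNPEP and UQCRC1 were made under each other scaling and lost without polysomal or total RNA replicate 2.

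**Figure D2:**
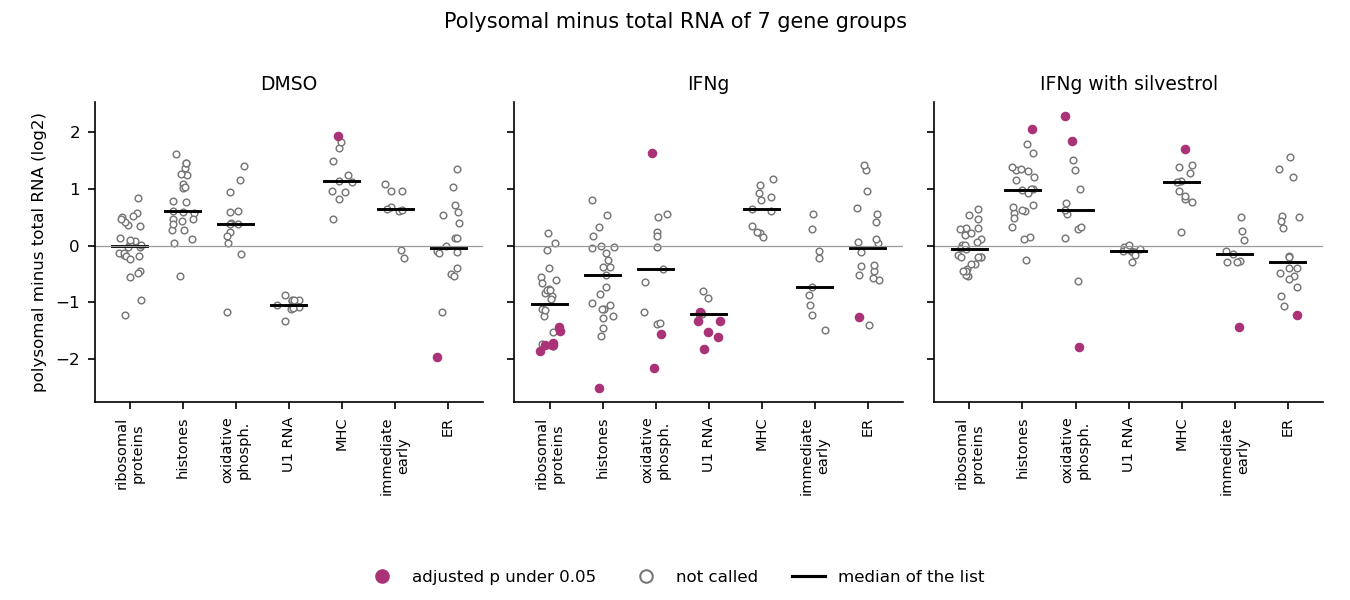
Polysomal minus total RNA (log2) of the members in 7 gene groups, 1 panel for each treatment, filled points for members called at an adjusted p under 0.05 and a bar at the group's median. Ribosomal proteins sit at a median of -0.00 in DMSO, -1.03 in IFNg and -0.05 with silvestrol, and U1 RNA copies at -1.05, -1.21 and -0.10.

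Gene groups were then followed across the fractions. In DMSO cells the 26 ribosomal protein members, which cover 24 symbols, had a median difference of -0.00. They include the 5 clusters named above that may be copies of the named gene. In IFNg cells it was -1.03 with 7 called lower, against 71 lower calls among all 933 members. Under the other scalings that median was -0.57 to -0.77 with 5 or 6 called, and without any 1 array it was -0.77 to -1.44. With silvestrol it was -0.05 with 0 called by limma and 1 at an unadjusted p under 0.05. The 23 histone members, a list made after values were seen, gave medians of 0.61, -0.52 and 0.99 with 0, 1 and 1 calls, and the IFNg median was -0.07 to -0.27 under the other scalings. Their DMSO median was 0.23 to 1.16 without any 1 array. The 11 members of the class I and II MHC genes lay above 0 in every treatment, at medians of 1.14, 0.65 and 1.12. Under the other scalings the IFNg median was 0.89 to 1.11 with 0 to 3 called higher. HLA-C, a classical class I heavy chain, was the member called, in DMSO (1.93, limma adjusted p = 0.039) and with silvestrol (1.70, adjusted p = 0.021). Its DMSO call was made under 1 of the 3 other scalings and lost without any 1 of the 12 arrays, and its silvestrol call was lost without any 1 of that group's 4 arrays. Of 34 small non-coding RNA members, 31, 33 and 29 lay below 0 in the 3 treatments, with 0, 8 and 1 called lower and 1, a U6 copy, called higher with silvestrol (1.70). The 8 were 4 to 6 under the other scalings, and after centring 1 was called higher.

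In total RNA, IFNg against DMSO gave 26 members that rose and 0 that fell, beside 0.287% and 0.0244% of all clusters and 117 and 8 of the middle clusters (1.82% called, against 2.79% of the members). At an unadjusted p under 0.05 there were 133 members. The mean that chose the members includes the IFNg and silvestrol arrays: 19 of the 26 had a mean under 14 over the 4 DMSO arrays, against 46 of all 933, so this count draws on the selection. Of the 887 members with a DMSO mean of at least 14, 7 rose and 0 fell. Of the 24 risers with a symbol, 11 are MHC genes and others serve antigen presentation (CD74, TAPBP, ERAP1). Without any 1 array, 20 to 29 were called, and 25 of the 26 remained under all 3 other scalings. In RNA pooled from a culture, fewer cells with a transcript and less of it per cell cannot be told apart.

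IDO1, the enzyme that starts tryptophan breakdown, had the largest change among the members. Its total RNA values were 5.64 and 5.77 with DMSO, 18.18 and 18.85 with IFNg, and 17.81 and 18.61 with silvestrol. Polysomal values were 7.11 and 5.98, 18.23 and 18.83, and 17.90 and 18.82. The DMSO arrays did not overlap the others, and the IFNg and silvestrol arrays did. The rise was 12.82 ± 0.44 in total RNA (limma adjusted p = 5.9e-09) and 11.98 ± 0.44 in polysomal RNA (adjusted p = 1.4e-08). With no detection call for the dim DMSO values, these differences may understate the change. IDO1 was thus one of those that are members only through their IFNg and silvestrol arrays.

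GBP2, a guanylate-binding protein of cell-autonomous defence, had total RNA values of 9.997 and 10.44 with DMSO, 17.08 and 17.03 with IFNg, and 16.68 and 16.94 with silvestrol. Its polysomal values were 10.10 and 9.64, 16.97 and 16.68, and 15.37 and 15.87. It rose by 6.84 ± 0.28 in total RNA and 6.95 ± 0.28 in polysomal RNA (limma adjusted p = 6.1e-08 and 4.2e-08). The polysomal values with silvestrol lay below those with IFNg alone on all arrays, at -1.20 ± 0.28 (limma adjusted p = 0.063), which did not pass. It passed under each of the 3 other scalings, at -1.49 to -1.60 (highest adjusted p = 0.037). PARP14 rose by 5.19 in total and 6.52 in polysomal RNA. CSF1, the macrophage growth factor, rose by 4.47 and 3.90, and PARP9, of the same enzyme family as PARP14, by 2.95 and 3.005. The polysomal rises of IDO1 and these 4 genes were called under each other scaling. PARP9 lost its total RNA call without DMSO or IFNg replicate 2 and its polysomal call without DMSO replicate 2.

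All 11 MHC members rose with IFNg in total RNA (median 3.80, from 2.52 to 4.90) and in polysomal RNA (median 3.11, from 1.89 to 4.76). The polysomal count was 11 under each of the 3 other scalings. The list was made after values were seen. On the total RNA DMSO arrays these 11 had medians of 12.19 and 12.72, under the bound of 14. Their count of rises therefore draws on the selection. The shares of all members that rose were 2.79% and 3.32% in total and polysomal RNA. HLA-E, the ligand of NKG2A, rose from 10.50 and 11.16 to 15.60 and 15.55 in total RNA, by 4.74 ± 0.34 (limma adjusted p = 1.2e-05). In polysomal RNA it rose from 12.44 and 12.87 to 16.71 and 15.74, by 3.57 (adjusted p = 0.00021). HLA-DRA, the class II alpha chain, rose by 3.37 ± 0.53 in total RNA (adjusted p = 0.015), with DMSO arrays at 14.48 and 16.32. CD74, the invariant chain of class II, rose by 3.62 in total RNA (adjusted p = 0.018), and its polysomal difference was 1.48 (adjusted p = 0.29), or 2.03 after centring (adjusted p = 0.042). The total RNA calls of HLA-DRA and CD74 were lost without DMSO replicate 1 or either IFNg replicate. TAPBP, which loads peptides on class I, rose by 3.14 and 2.61, and the peptide trimmer ERAP1 by 3.10 and 3.66. For silvestrol minus IFNg, limma called 0 of the 11 MHC members in either fraction, with 0 and 3 at an unadjusted p under 0.05 in total and polysomal RNA. The medians were -0.05 and 0.44, and the second was -0.00 to 0.15 under the other scalings.

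In polysomal RNA, IFNg against DMSO gave 31 higher and 131 lower members, beside 0.478% and 1.93% of all clusters. Of the middle clusters, 135 rose and 917 fell (15.3%, against 17.4% of the members). The median change of the members was -0.30 and that of the middle clusters -0.46. Of the 31 that rose, 22 also rose in total RNA and all 31 remained under the 3 other scalings. As in total RNA, the mean that chose the members includes the IFNg and silvestrol arrays, so the count of 31 draws on the selection. Of the 131 that fell, 0 fell in total RNA, where their median was -0.35 and 110 lay below 0. Of the 131, 55 remained lower under all 3. The lower calls then numbered 59 with quantile normalization across the 12 arrays, 55 with it inside each fraction and 85 with centring. Under these scalings the share of higher calls rose from 19.1% to between 43.3% and 49.1%, and the median from -0.30 to 0.03, 0.03 and 0.24. Without polysomal DMSO replicate 2, 24 were higher and 18 lower, so the larger share turned to the rises. The total of 162 was then 42, and leaving out IFNg replicate 1 or 2 gave 88 or 67.

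Ribosomal proteins were among these falls. All 26 members, with the 5 possible copies counted, lay below 0 in polysomal IFNg minus DMSO, with a median of -1.18, and 13 fell with 0 higher. Under the other 3 scalings and without any 1 array all 26 again lay below 0, at medians from -0.64 to -0.88 and from -0.99 to -1.41. The number called was lower, from 5 to 7 by scaling, and 5, 3, 6 and 4 without polysomal DMSO replicate 1 or 2 or polysomal IFNg replicate 1 or 2. In total RNA, limma called 0 of the 26, with 2 at an unadjusted p under 0.05, and the median was -0.28. The median of all 933 members in the polysomal comparison was -0.30.

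RPL22, an RNA-binding protein of the large subunit, had total RNA values of 17.38 and 17.31 with DMSO, 16.82 and 17.12 with IFNg, and 17.08 and 17.31 with silvestrol. Its polysomal values were 17.40 and 17.47, 15.61 and 14.81, and 16.79 and 16.80. Only the polysomal IFNg arrays stood low. The fall was -2.23 ± 0.28 (limma adjusted p = 0.0018), and silvestrol minus IFNg was 1.58 ± 0.28 (adjusted p = 0.017). RPL31 fell by 2.13, RPS14 by 2.06 (adjusted p = 0.033), RPS18 by 1.38 and RPS27 by 1.22 (adjusted p = 0.048). RPS23, whose start window above also opens with a C and T run, was at -0.77 ± 0.24 (adjusted p = 0.15). RPL10A, whose annotated start lacks such a run, had the largest fall of the group, -2.59 ± 0.48 (adjusted p = 0.013). Under the other scalings RPL22 (-1.68 to -2.00), RPL31 (-1.59 to -1.86) and RPL10A (-2.04 to -2.20) were called each time, RPS14 and RPS18 in 1 of the 3 and RPS27 in 0. The falls of RPL22 and RPL31 were called without any 1 array. That of RPS14 was lost without DMSO replicate 2 or either IFNg replicate, that of RPL10A without either DMSO replicate or IFNg replicate 2, and those of RPS18 and RPS27 without any 1 of these 4 polysomal arrays. The rise of RPL22 with silvestrol was called under 1 of the 3 scalings and lost without IFNg replicate 2 or either silvestrol replicate.

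With silvestrol added, the 26 ribosomal protein members lay above the IFNg level in polysomal RNA at a median of 1.17, and 7 rose. The share of all members that rose was 9.65%. Against DMSO the silvestrol group had a median of -0.24 with 0 called by limma and 6 at an unadjusted p under 0.05. Under the other scalings 24 of the 26 were above 0 in silvestrol minus IFNg and 2 to 4 were called. The count of 7 was 3 and 0 without polysomal IFNg replicate 1 or 2, and 0 and 1 without silvestrol replicate 1 or 2. The IFNg minus DMSO and silvestrol minus IFNg values share the polysomal IFNg arrays, so opposite signs in them are not independent.

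**Figure D3:**
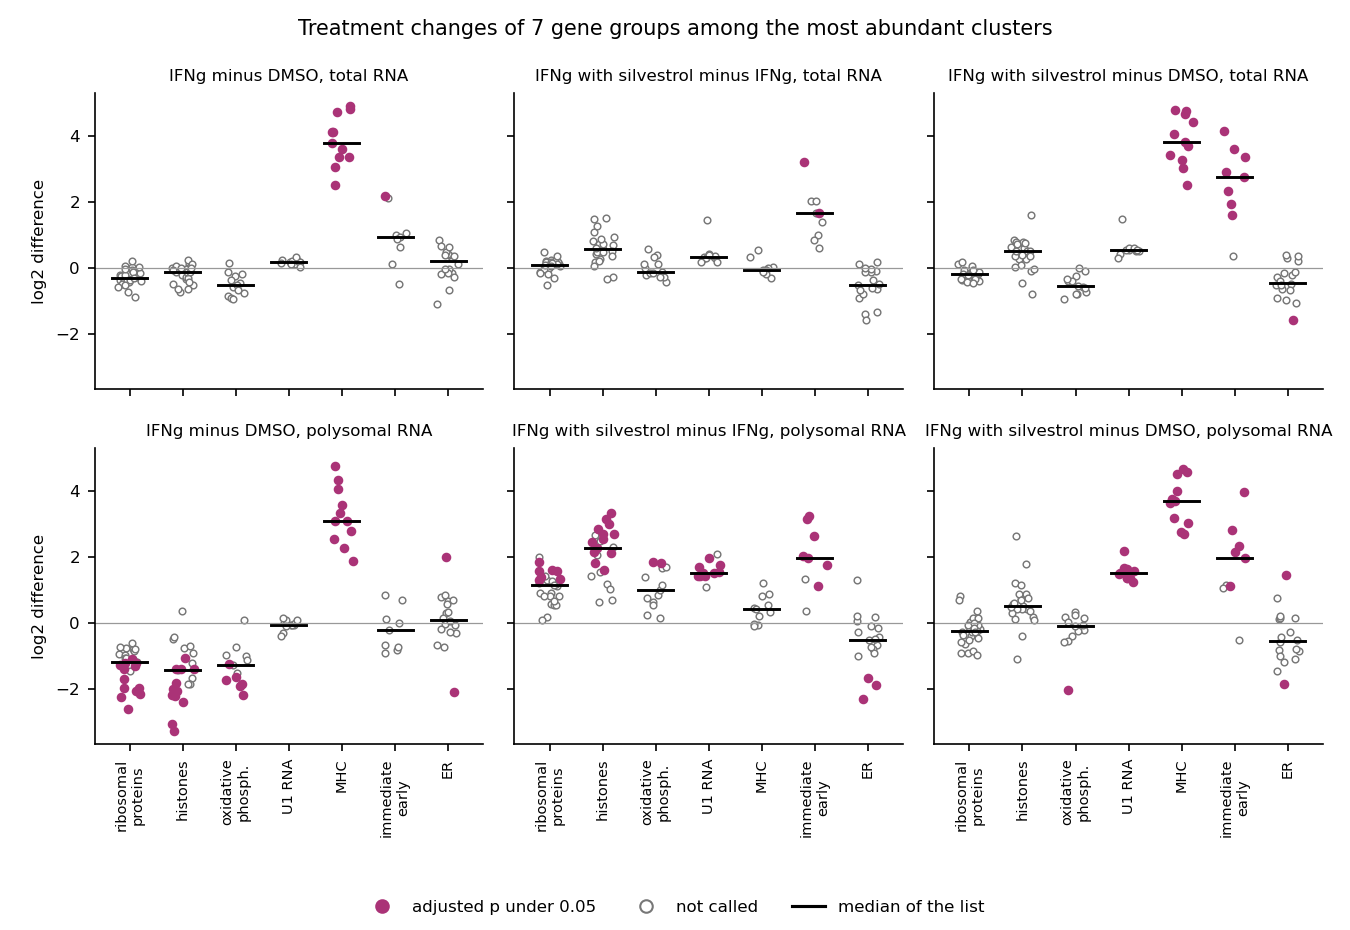
Log2 differences between treatments for the members of 7 gene groups, total RNA in the upper row and polysomal RNA in the lower row, filled points for calls at an adjusted p under 0.05 and a bar at each median. MHC genes lie high in both rows against DMSO, and ribosomal proteins and histones lie low in the lower left panel, with medians of -1.18 and -1.43, and high in the lower middle panel, with medians of 1.17 and 2.27.

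Of 23 histone members, 12 fell in polysomal RNA with IFNg (median -1.43) and 13 rose when silvestrol was added (median 2.27), whereas limma made 0 calls in polysomal silvestrol minus DMSO (median 0.52, 8 at an unadjusted p under 0.05). In total RNA it made 0 calls, with 0, 5 and 1 at an unadjusted p under 0.05 in IFNg minus DMSO, silvestrol minus IFNg and silvestrol minus DMSO. The total RNA DMSO arrays disagreed, with histone medians of 16.94 and 15.51. The median of IFNg minus DMSO in total RNA was -0.12, but -0.85 to 0.36 without any 1 array. Whether total RNA of the histones was level is therefore not settled. H1-4, a linker histone, had polysomal values of 16.84 and 16.49 with DMSO, 13.84 and 12.98 with IFNg, and 16.93 and 16.58 with silvestrol. Its total RNA values were 16.59 and 15.20, 15.90 and 15.96, and 16.62 and 16.64, so the low values were those of polysomal IFNg. The changes were -3.25 ± 0.40 (limma adjusted p = 0.0016) and 3.34 ± 0.40 (adjusted p = 0.0021). They were -2.71 to -2.99 and 2.89 to 3.05 under the other scalings, and both were called there and without any 1 array. H2BC3, an H2B gene, fell by 3.06 ± 0.62 (adjusted p = 0.022), with DMSO at 14.98 and 15.59, IFNg at 12.61 and 11.84 and silvestrol at 14.87 and 14.94, was called under 1 of the 3 other scalings, and lost the call without any 1 of the 4 DMSO and IFNg arrays. The number of falls was 5 to 8 under the other scalings and 4, 1, 5 and 2 without polysomal DMSO replicate 1 or 2 or polysomal IFNg replicate 1 or 2. The rises with silvestrol were 12 or 13 under those scalings, 7 without polysomal IFNg replicate 2 and 3 without polysomal silvestrol replicate 1.

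EIF4EBP1 encodes 4E-BP1, which binds eIF4E and holds back cap-dependent translation. Total RNA was level, at 15.57 and 14.75 with DMSO, 14.92 and 15.27 with IFNg, and 15.03 and 15.14 with silvestrol. Polysomal values were 15.92 and 16.24, 13.52 and 13.07, and 15.74 and 15.28. The change was -2.79 ± 0.32 with IFNg (limma adjusted p = 0.00087) and 2.21 ± 0.32 from IFNg to silvestrol (adjusted p = 0.0052). TOMM7, of the mitochondrial import channel, gave -2.82 and 2.86 (adjusted p = 0.0034 and 0.0049). Of 13 members of oxidative phosphorylation, another list made after values were seen, 6 fell with IFNg in polysomal RNA (median -1.27, 1 to 4 calls under the other scalings), and 2 rose with silvestrol. CYCS, cytochrome c, fell by 2.16 with IFNg and was still 2.01 below DMSO with silvestrol (-2.01, adjusted p = 0.0078). PTMA, prothymosin alpha, was likewise low in both, at -2.01 and -1.58 against DMSO (adjusted p = 0.0030 and 0.015). The IFNg falls of EIF4EBP1, TOMM7, CYCS and PTMA were called under each other scaling, where EIF4EBP1 was at -2.24 to -2.48. That of CYCS was lost without polysomal DMSO replicate 2, and the other 3 were called without any 1 array. The rises of EIF4EBP1 and TOMM7 with silvestrol were called under each scaling and lost without IFNg replicate 2 or silvestrol replicate 1. In silvestrol minus DMSO, CYCS lost the call without DMSO replicate 2 or silvestrol replicate 1, and PTMA without either DMSO replicate or silvestrol replicate 1.

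**Figure D4:**
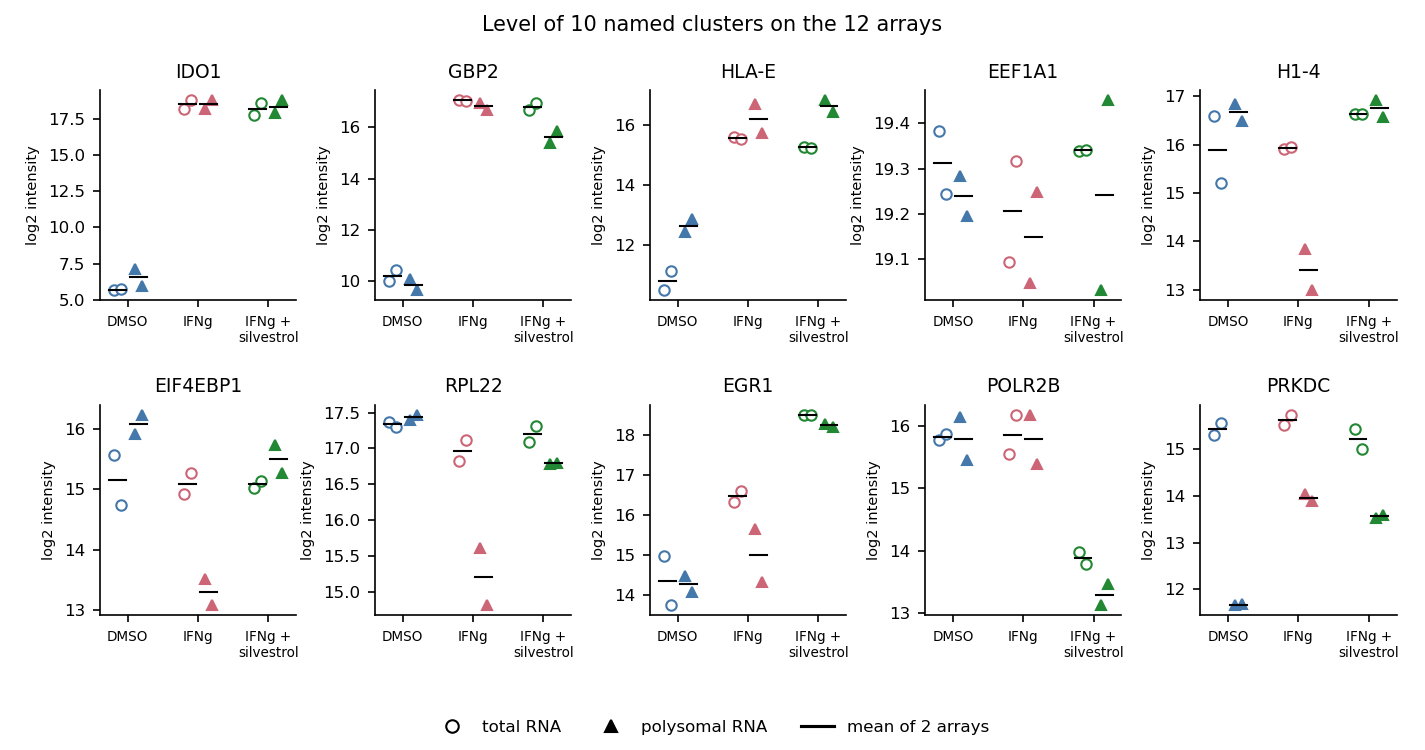
Log2 intensity of 10 named clusters on the 12 arrays by treatment, open circles for total RNA, filled triangles for polysomal RNA and a bar at the mean of each pair, with a separate axis for each gene. H1-4, EIF4EBP1 and RPL22 are low only on the polysomal IFNg arrays, EGR1 is high with silvestrol in both fractions at 18.21 to 18.52, and EEF1A1 spans only 19.03 to 19.45.

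Other members that rose in polysomal RNA with IFNg were examined singly. PRKDC rose by 2.30 ± 0.25 (limma adjusted p = 0.00065) with 0.20 in total RNA. UGGT1, which checks glycoprotein folding in the ER, rose by 1.99 (adjusted p = 0.0034), and CD109, a GPI-anchored surface protein, by 1.53 (adjusted p = 0.026). All 3 were called lower in polysomal than total RNA of DMSO cells, a difference that shares the polysomal DMSO arrays with these rises and that UGGT1 and CD109 lost without any 1 of the 4 DMSO arrays. CD47, the surface protein that signals against engulfment, rose by 2.95 (adjusted p = 0.010), and its total RNA change of 2.72 had an adjusted p of 0.052, or at most 0.029 under the other scalings. EIF2AK2, the interferon-induced kinase PKR, rose by 1.73 in polysomal RNA (adjusted p = 0.019). The 5 polysomal rises were called under each other scaling. Those of CD109 and EIF2AK2 were lost without any 1 of the 4 arrays compared, and that of CD47 without DMSO replicate 1 or IFNg replicate 2.

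Few members were called in total RNA when silvestrol was set against IFNg alone. There, 2 rose and 0 fell, beside 0.0412% and 0.0153% of all clusters and 22 and 10 of the middle clusters. At an unadjusted p under 0.05 by limma there were 93 members. The 2 that rose were BHLHE40, a transcriptional repressor, and ERRFI1, a feedback inhibitor of the EGF receptor. BHLHE40 had total RNA values of 13.45 and 13.76 with DMSO, 13.88 and 13.61 with IFNg, and 16.91 and 17.03 with silvestrol, a rise of 3.23 ± 0.25 (limma adjusted p = 0.00059). In this fraction only its silvestrol arrays lay above the bound of 14. The mean that chose the members includes those arrays, so this rise draws on the selection. ERRFI1 rose by 1.68 ± 0.23 (adjusted p = 0.028). Without any 1 of the 4 arrays compared, 1 of the 2 was called. Against DMSO, 34 members rose and 6 fell in total RNA, beside 0.534% and 0.179% of all clusters. Of the middle clusters, 218 rose and 98 fell (4.60% called, against 4.29% of the members). IDO1 and GBP2 were among the 34, and the count of rises draws on the selection, as it did for IFNg against DMSO.

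In polysomal RNA, silvestrol against IFNg gave 90 higher and 16 lower members, beside 1.09% and 0.301% of all clusters and 443 and 139 of the middle clusters (8.47%, against 11.4% of the members). Against DMSO there were 51 and 50, beside 0.555% and 0.914%, with 193 and 464 of the middle clusters. The 51 rises draw on the selection too, since the mean that chose the members includes the silvestrol arrays. The members' medians were 0.31 and -0.09, and 0.23 and -0.24 in the middle clusters. After quantile normalization the first became -0.02 over all arrays and -0.03 within fractions, and 0.03 after centring. Centring also moved the second to 0.17. Of the 90 rises, 40 remained under all 3 scalings, and all 16 falls did. The higher share of the 106 calls, 84.9%, was 57.8% to 58.3% under these scalings. Against DMSO it went from 50.5% to between 56.4% and 66.7%. The 106 were 52 and 22 without polysomal IFNg replicate 1 or 2, and 12 and 52 without silvestrol replicate 1 or 2. The 101 against DMSO were 60 and 37 without DMSO replicate 1 or 2, and 30 and 62 without silvestrol replicate 1 or 2.

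Immediate early and feedback genes, a list made after values were seen, have 9 members. Of these, 7 rose with silvestrol against IFNg in polysomal RNA (median 1.98) and 8 rose against DMSO in total RNA (median 2.76). The shares of all members that rose in these comparisons were 9.65% and 3.64%. In total RNA against IFNg all 9 lay above 0 without any 1 array, at medians from 1.59 to 1.75. EGR1, a zinc finger factor induced by growth signals, had total RNA values of 14.97 and 13.74 with DMSO, 16.34 and 16.61 with IFNg, and 18.52 on both silvestrol arrays. Its polysomal values were 14.48 and 14.08, 15.65 and 14.34, and 18.29 and 18.21. The silvestrol arrays were the highest in both fractions. The polysomal rise over IFNg was 3.26 ± 0.43 (limma adjusted p = 0.0034) and that in total RNA over DMSO 4.17 ± 0.43 (adjusted p = 0.00031). IER3, an early response gene, rose by 3.16 over IFNg in polysomal RNA (adjusted p = 0.0021), and MCL1, which protects from apoptosis, by 1.98 (adjusted p = 0.0037). These polysomal rises of EGR1, IER3 and MCL1 were called under each other scaling and without any 1 array. The 7 were 5 under each other scaling and 4 without polysomal IFNg replicate 2 or silvestrol replicate 1.

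POLR2B, the second largest subunit of RNA polymerase II, had polysomal values of 16.14 and 15.45 with DMSO, 16.18 and 15.39 with IFNg, and 13.12 and 13.47 with silvestrol. Total RNA was 15.77 and 15.87, 15.55 and 16.17, and 13.98 and 13.78. Both fractions were low only with silvestrol. The polysomal change was -2.49 ± 0.34 (limma adjusted p = 0.0039) and that in total RNA -1.98 (adjusted p = 0.082). LAPTM4B, a lysosomal membrane protein, gave -2.32 (adjusted p = 0.012), and TRA2B, a splicing regulator, -1.91 (adjusted p = 0.0058). Of 18 members that serve translocation and folding in the ER, also listed after values were seen, 3 fell and 0 rose: DNAJC10 (-2.30), DNAJB11 (-1.88), both cochaperones, and CALU (-1.66), a calcium-binding protein. The median of the 18 was -0.50, and from -0.76 to -0.79 under the other scalings with the same count. The share of all members that fell was 1.71%. The 6 polysomal falls named here were called under each other scaling. That of POLR2B was lost without silvestrol replicate 1, that of TRA2B without IFNg replicate 2 or silvestrol replicate 1, and that of LAPTM4B without IFNg replicate 2 or either silvestrol replicate. The 3 ER members lost the call without any 1 of the 4 arrays.

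U1 RNA, which recognises the 5′ splice site in the nucleus, had 11 members with 9 distinct profiles, listed after values were seen. In polysomal minus total RNA of IFNg cells 6 were called lower (median -1.21), beside 7.61% of all members. Under the other scalings 1 to 3 were called lower (-0.75 to -1.02). In total RNA limma called 0 between treatments, with 0, 1 and 2 at an unadjusted p under 0.05 in IFNg minus DMSO, silvestrol minus IFNg and silvestrol minus DMSO. In polysomal RNA, 9 rose with silvestrol against IFNg (7 distinct profiles, median 1.51) and all 11 against DMSO (9 distinct profiles, median 1.51). The shares of all members that rose were 9.65% and 5.47%. RNU1-3 had polysomal values of 17.43 and 17.37 with DMSO, 17.14 and 17.54 with IFNg, and 18.91 and 18.65 with silvestrol. In total RNA it was 18.63 and 18.09, 18.66 and 18.43, and 18.88 and 18.88. The polysomal arrays with silvestrol were thus near the total RNA level. Both RNU1-1 clusters rose against IFNg, by 1.77 and 1.71. The 11 calls against DMSO were 11 under all 3 scalings but 0 without either DMSO replicate or silvestrol replicate 1, and 4 without silvestrol replicate 2. The 9 against IFNg were 4 to 6 under the scalings, 0 without polysomal IFNg replicate 1 or silvestrol replicate 1, and 4 without IFNg replicate 2.

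Members of the other lists gave few calls. ENO1 was the only listed glycolytic enzyme found in the table, which stops within chromosome 9, and it had 3 clusters there. Its member cluster lay between 18.13 and 18.88 in total and between 18.86 and 19.42 in polysomal RNA, with 0 calls in the 12 comparisons. The other ENO1 clusters had mean log2 levels of 10.35 and 5.49. HSP90AB1 and HSPD1, cytosolic and mitochondrial chaperones, had 0 calls, as did the tubulin TUBB. TMSB10, thymosin beta 10, was called lower in polysomal RNA of IFNg cells only (-1.78 ± 0.27, limma adjusted p = 0.0091), also under each other scaling, and not without polysomal replicate 1 or total RNA replicate 2. EEF1D, of the EEF1 exchange complex, differed by -1.12 in polysomal RNA with IFNg (adjusted p = 0.10). The 13 copies of 7SL, the RNA of the signal recognition particle, gave 1 call, in polysomal minus total RNA of IFNg cells, and 3 members of the 7SK family and 2 of the Y RNA family gave 0. Of 2 members of the U6 family, 1 rose with silvestrol against IFNg in polysomal RNA, and 1 was called higher in polysomal than total RNA with silvestrol. The 5 clusters annotated as nuclear copies of mitochondrial genes, whose probes may also bind the mitochondrial RNA, gave 0 calls. The 7 proteasome members gave 1 call between treatments.

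Whether IFNg changed polysomal and total RNA differently was tested as an interaction. Relative to DMSO, 1 member was higher and 5 lower, beside 0.0107% and 0.16% of all clusters and 2 and 68 of the middle clusters. PRKDC was the higher one (2.10 ± 0.35, limma adjusted p = 0.038), and the named lower ones were H1-4 (-3.29 ± 0.57, adjusted p = 0.046) and EIF4EBP1 (-2.72 ± 0.45, adjusted p = 0.035). PRKDC was called under each other scaling but not without any 1 of the 12 arrays, and H1-4 and EIF4EBP1 under 0 of the scalings. The count of 6 was 2 under each other scaling, 9 without polysomal IFNg replicate 1 and 0 to 3 without any other single array. For silvestrol relative to IFNg, limma called 0 members, beside 0.0183% higher and 0% lower of all clusters, with 179 at an unadjusted p under 0.05. Without polysomal IFNg replicate 1 that count was 4. For silvestrol relative to DMSO it called 0 members, beside 0% and 0% of all clusters, with 97 at an unadjusted p under 0.05.

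Over the 6 treatment comparisons, 685 of the 933 members (73.4%) had no call and 5212 of the 6875 middle clusters (75.8%). In total RNA alone, 41 members (4.39%) had at least 1 call, against 4.77% of middle clusters. In polysomal RNA 243 members (26.0%) had one, against 23.2%. The range of the 6 group means had a median of 1.27 among members and 1.43 among middle clusters, and the spread between replicates a median SD of 0.304 and 0.381. Within the members both measures fell with level. The share with a call was 33.9% from 14 to 15, 25.9% from 15 to 16, 21.4% from 16 to 17, 22.1% from 17 to 18 and 11.3% at 18 or above. The mean that sets these classes includes the changed arrays, so these shares are a description.

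**Figure D5:**
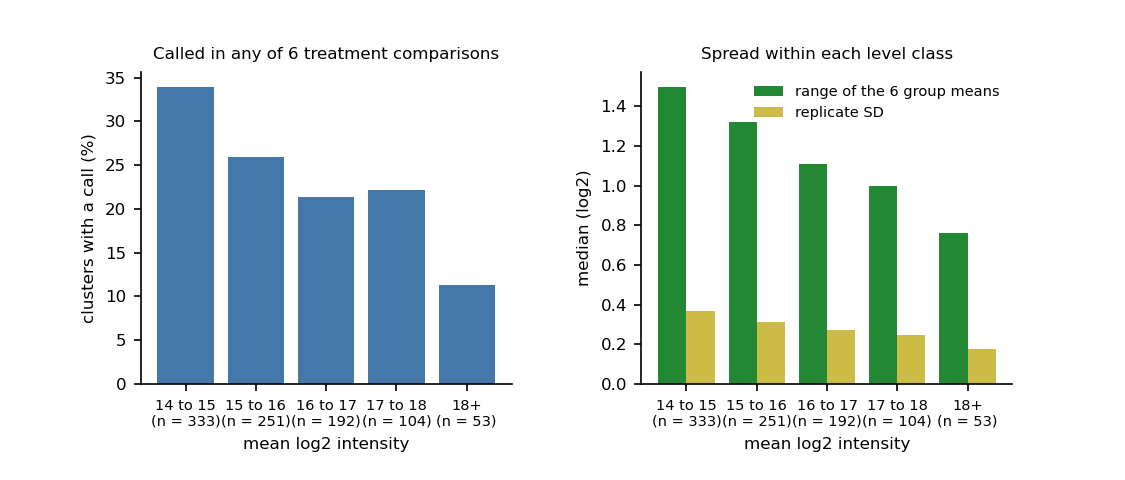
Left, percent of members called in any of the 6 treatment comparisons by class of mean log2 intensity. Right, median range of the 6 group means and median SD between replicates in the same classes. The share with a call goes from 33.9% in the lowest class to 11.3% in the highest, the range from 1.497 to 0.76 and the SD from 0.368 to 0.177.

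The smallest ranges among named members without a call belonged to EEF1A1 and its copies. EEF1A1P6 had a range of 0.16, EEF1A1 of 0.19 and EEF1A1P11 of 0.28, and such copies may share probes' targets. ADGRG6, an adhesion receptor, followed at 0.30 and the 7SL copy RN7SL66P at 0.31. A small range of means does not show equal replicates: ADGRG6 went from 13.59 to 14.89 between the total RNA DMSO arrays, whereas EEF1A1 went from 19.24 to 19.38.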

How the data were processed

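RNA of A375 cells was measured on 12 Affymetrix arrays (biotin label), and groups and replicate numbers come from the sample titles. The deposited values are 1 intensity on a linear scale per transcript cluster and array. For software, background correction and normalization the labels name nothing (not given in the sources used here). The table covers chromosomes 1 to 8 and part of 9 by its identifiers, and no detection call comes with it.

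Log2 of the deposited intensities was taken with no pseudocount and no filter. Group means were fitted over the 12 arrays with limma 3.58.1 in R 4.3.3 (6 residual and 6.72 prior degrees of freedom) for 12 contrasts, adjusted over all 65535 clusters, with a call under 0.05. The fit was tested on simulated data. Only 2 arrays a group limit the precision.

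Symbols come from GEO's platform annotation, updated through RefSeq. Named were the members with the 4 largest treatment changes without overlap, the 10 highest means, the 5 highest and 5 lowest fraction differences, members of 12 lists set with the design and 12 added after values were seen, and single genes then picked from the calls. Members and lists were chosen with earlier results of these data known. Python 3.11.15 with pandas 2.3.3 and matplotlib 3.10.9 made the summaries.

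Alternatives were a replicate block, a random block for culture, an intensity trend with robust variances, a fit of only those arrays that a contrast uses, 3 scalings, bright clusters alone, a fold of at least 1.5, leaving out each array, and bounds of 13 and 15.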

Additional observations from a re-analysis of the deposited data

Results flagged for a closer look

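There were 6 members that differed between treatments in their polysomal minus total difference, by the interaction of IFNg against DMSO. The unnamed clusters TC0100015706.hg.1 and TC0100015710.hg.1, gave -6.37 and -6.31, and their values were nearly the same on every array. Polysomal values of the first were 15.03 and 14.54 with DMSO, 11.99 and 8.60 with IFNg, and 16.01 and 16.07 with silvestrol. An unnamed cluster on chromosome 7, TC0700007897.hg.1, gave -4.82. H1-4 gave -3.29, EIF4EBP1 -2.72 and PRKDC 2.10. In 5 of the 6 the polysomal IFNg arrays were the lowest, and these arrays also had the lowest medians of all members, 15.26 and 15.38. Their part in the result was not tested. Under each of the 3 other scalings 2 members were called.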

How the results depend on the processing

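With a bound of 13 or 15 in place of 14 there were 1406 or 600 members. The number called in polysomal minus total RNA of DMSO cells, 7, was 39 among bright clusters alone, 4 after centring, 3 with an intensity trend, 1 with only the arrays compared, 3 and 4 after quantile normalization over all arrays and within fractions, and 11 with the replicate block. Among bright clusters alone the numbers were 181 and 140 for the fraction difference in IFNg (77) and silvestrol (59), 4 for silvestrol minus IFNg in total RNA (2), 184 and 166 for silvestrol minus IFNg (106) and minus DMSO (101) in polysomal RNA, and 11 for the IFNg interaction (6). With only the arrays compared, which leaves fewer samples, they were 8, 0, 1, 50, 51 and 0, and 94 for IFNg minus DMSO in polysomal RNA (162). The intensity trend gave 39 for the silvestrol fraction difference and 1 for silvestrol minus IFNg in total RNA. Quantile normalization over all arrays or within fractions gave 104 and 97 for polysomal IFNg minus DMSO, and 2 and 2 for the IFNg interaction, as did centring (2). For these scalings the cause was not tested.

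The medians over members moved with scaling. After centring they were 0.106 and 0.0391 for the fraction difference in IFNg and silvestrol, 0.243, 0.0252 and 0.165 for IFNg minus DMSO, silvestrol minus IFNg and silvestrol minus DMSO in polysomal RNA, and 0.162, 0.0296 and 0.159 for the 3 interactions. Quantile normalization over all arrays gave -0.0512 for the fraction difference in IFNg, 0.0296 and -0.0204 for the first 2 polysomal comparisons, and -0.0234 and -0.0242 for the first 2 interactions. Within fractions it gave -0.159 and -0.150 for the fraction difference in DMSO and IFNg, 0.0289 and -0.0258 for those polysomal comparisons, and -0.0270 and -0.0262 for those interactions. The random block for culture (correlation 0.0285) and the fold of at least 1.5 moved no count by over 1.5 times.

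Without 1 array, where a group of 1 is assumed to vary like the others, the numbers called ranged over 1 to 4, 6 to 79 and 0 to 61 for the 3 fraction differences. They ranged over 20 to 29, 1 to 2 and 25 to 42 in total RNA, 42 to 171, 12 to 121 and 30 to 101 in polysomal RNA, and 0 to 9, 0 to 4 and 0 to 0 for the interactions. The medians ranged from -0.20 to 0.11 for the fraction difference in DMSO, from -0.48 to -0.15 for IFNg minus DMSO and from -0.22 to 0.0255 for silvestrol minus DMSO in polysomal RNA. Those of the interactions of IFNg and of silvestrol against DMSO ranged from -0.56 to -0.22 and from -0.29 to 0.0570.

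Deviations of samples with the same replicate number correlated between -0.19 and 0.57 over 15 pairs of groups, 6 of them over 0.1. Among the IFNg and silvestrol groups all were positive, from 0.08 to 0.57, and total with polysomal DMSO gave 0.25. Pairs of a DMSO group with another treatment gave -0.19 to 0.04. The labels do not say what a replicate number marks, so the numbers were not taken to pair the samples. The replicate block changed no other count by over 1.5 times. No detection call or background came with the values, so the dimmest levels have no stated limit.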
